A study of Arabidopsis thaliana with 18 samples.

Results

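Tubulin transcripts were followed in root cultures of Arabidopsis thaliana. Probe sets were taken whose annotation gives a single gene with a symbol of TUA (alpha-tubulin) or TUB (beta-tubulin) and a digit, provided that the signal lay above the 40th percentile of the array on at least 3 of 18 arrays. The rule gave 7 of the 8164 named genes that passed this filter, which 15261 probe sets passed in all, 2 for alpha-tubulin and 5 for beta-tubulin, and each had 1 probe set. The alpha-tubulins were TUA1 (AT1G64740, probe set 262885_at) and TUA6 (AT4G14960, 245270_at). The beta-tubulins were TUB1 (AT1G75780, 262978_at), TUB5 (AT1G20010, 261230_at), TUB6 (AT5G12250, 250317_at), TUB7 (AT2G29550, 266295_at) and TUB9 (AT4G20890, 254446_at). RefSeq lists 15 alpha- and beta-tubulin genes in this species. A probe set annotated with both TUA5 and TUA3 was left out, and TUA2, TUA4, TUB2, TUB3, TUB4 and TUB8 were not analysed here. All 7 genes passed the filter, TUB1 on 17 of the 18 arrays and the others on 18.

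The cultures were wild type Col-0 roots grown in darkness at 25 °C in Gamborg's B5 medium and taken at an age of 14 days. Groups of 3 Affymetrix ATH1 arrays were treated with CMP for 24 h or 4 h, with fenclorim for 24 h or 4 h, or with the solvent acetone for 24 h or 4 h, so that all groups shared genotype, tissue and medium and differed in compound and time. Fenclorim is used on rice as a safener, a chemical given to shield a crop against a herbicide. What the code name CMP stands for is not in the labels, and neither are doses, so the compounds are compared below at matched times and unknown doses. Nothing in the labels says that replicates came from separate cultures. The p-values may then cover technical spread alone.

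Alpha- and beta-tubulin pair into a dimer, and dimers join end to end into the wall of the microtubule. In plant cells microtubules line the cortex and guide the cellulose synthase complexes of the growing wall, and in division they form the preprophase band, the spindle and the phragmoplast. Each kind of tubulin is encoded by a gene family in Arabidopsis. Members of the family differ in the organs that express them: TUB1 is known from roots, TUA1 and TUB9 are known from pollen, TUB6 as a transcript that falls in the cold, and TUA6 as the tubulin most often fused to a fluorescent protein to make microtubules visible.

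Values are signals of the MAS5 algorithm on a linear scale, which the authors had scaled so that the trimmed mean of every array was 100.01. The median signal of an array was 27.2 to 35.2 in the 12 compound-treated arrays and 35.4 to 40.9 in the 6 acetone arrays. On the log2 scale the median difference of all tested probe sets from acetone was -0.13 for CMP at 24 h, -0.25 for CMP at 4 h, -0.24 for fenclorim at 24 h and -0.23 for fenclorim at 4 h. Centring each array on its own median moved these medians to 0.14, 0.04, 0.25 and 0.11, so for tubulins and genes of the lists below, calls against acetone or between the compounds that changed on that scaling are named with their centred values. As a check of the tissue label, the root glucosidase gene PYK10 had a mean signal of 3442 and lay above the 40th percentile on all 18 arrays. It was the 1 root marker of 7 listed that could be named. Of 6 root hair markers listed 2 could be named, EXPA18, above that percentile on 6 of 18 arrays, and EXPA7, on 2 of 18. The pollen actin gene ACT12, the one pollen marker of 6 listed that could be named, lay above it on 0 of 18. The 5 green tissue markers and the 5 xylem markers listed could not be named on the array.

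Against acetone, 6 of the 7 tubulins were called lower with both compounds at both times, as were 23.3% to 27.7% of all probe sets tested. After median centring 6 were called lower with CMP at 24 h, 5 with CMP at 4 h and 4 with fenclorim at either time. On that scaling 10.6% to 16.2% of all probe sets were called lower. The largest differences were those of TUB1 and TUB5 at 24 h, which were 9.23-fold and 9.18-fold lower with CMP and 11.5-fold and 7.02-fold lower with fenclorim. TUB7, TUB6, TUA6 and TUB9 fell by less, and TUA1 was called lower in none of the comparisons. Because RNA came from whole cultures, fewer cells of a type that express a tubulin and less of its RNA in each cell cannot be told apart. The fenclorim and CMP comparisons at a given time share the same acetone arrays, so they are not independent of each other. Tubulin genes resemble each other in sequence, and binding of 1 gene's transcripts by another's probes was not tested.

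**Figure D1:**
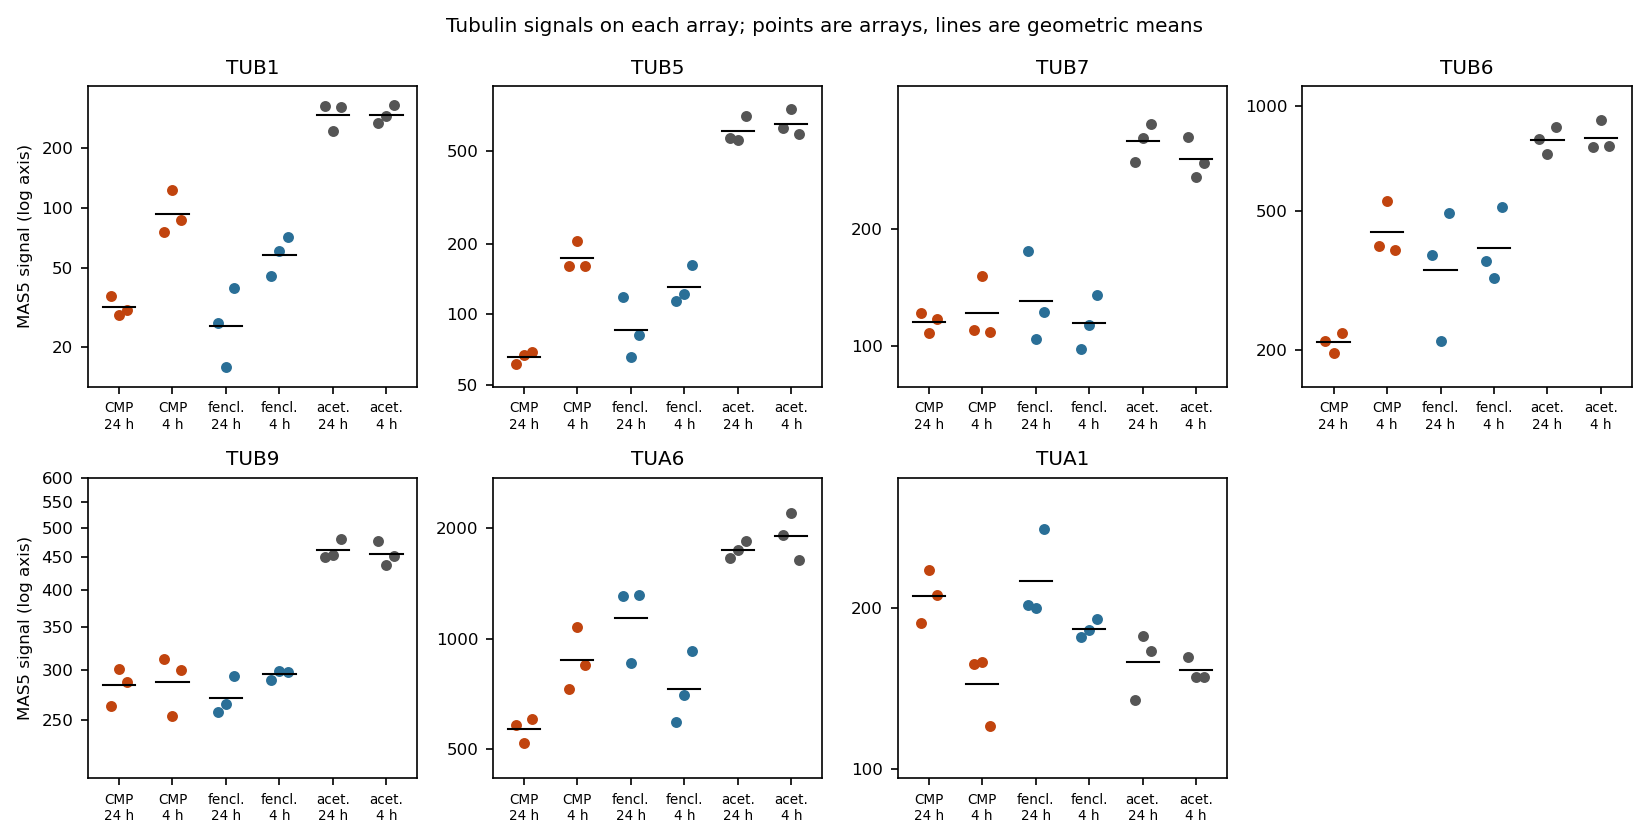
MAS5 signal (log axis, scaled separately for each gene) of the 7 tubulins by group. Points are arrays in the order of replicates 1 to 3, and lines are geometric means. For all tubulins but TUA1, the 6 acetone arrays lie above the 12 compound arrays. The share of all probe sets with that separation was not computed.

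TUB1 gave signals of 35.9, 28.8 and 30.7 in CMP at 24 h and 26.4, 15.8 and 39.5 in fenclorim at 24 h, against 323, 241 and 321 in acetone at 24 h, for replicates 1, 2 and 3. At 4 h it gave 75.6, 122 and 86.7 in CMP and 45.5, 60.4 and 71.3 in fenclorim, against 266, 287 and 326 in acetone. No compound array reached the lowest acetone array at either time. The log2 difference from acetone was -3.21 ± 0.28 with CMP at 24 h (SE, 3 arrays against 3, limma adjusted p 2.11e-07) and -1.65 ± 0.28 with CMP at 4 h (adjusted p 0.000192). With fenclorim it was -3.52 ± 0.28 at 24 h (adjusted p 1.32e-07) and -2.33 ± 0.28 at 4 h (adjusted p 6.59e-06). Ordered by mean signal, the acetone groups came first and overlapped, at 295 ± 46.6 for 24 h and 293 ± 30.4 for 4 h (SD, n = 3). CMP at 4 h followed at 94.9 ± 24.4, then fenclorim at 4 h at 59.1 ± 13.0, CMP at 24 h at 31.8 ± 3.70 and fenclorim at 24 h at 27.2 ± 11.9. These neighbours did not overlap, except the last pair. The lowest value, 15.8 in fenclorim at 24 h, was the 39.3rd percentile of its array and the sole tubulin value under the 40th, so the 11.5-fold difference rests in part on signals near the filter.

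TUB5 gave 61.3, 67.2 and 69.2 in CMP at 24 h and 119, 65.7 and 82.0 in fenclorim at 24 h, against 566, 553 and 705 in acetone at 24 h. At 4 h it gave 160, 206 and 160 in CMP and 114, 122 and 163 in fenclorim, against 625, 756 and 588 in acetone. No acetone array lay below 553, and no compound array exceeded 206. Its log2 differences from acetone were -3.20 ± 0.20 with CMP at 24 h (limma adjusted p 1.02e-08) and -1.90 ± 0.20 with CMP at 4 h (adjusted p 1.93e-06). With fenclorim they were -2.81 ± 0.20 at 24 h (adjusted p 5.8e-08) and -2.31 ± 0.20 at 4 h (adjusted p 2.49e-07). In mean signal the acetone groups stood apart at the top, and CMP at 4 h, fenclorim at 4 h, fenclorim at 24 h and CMP at 24 h followed, each overlapping with its neighbour.

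TUB7 gave 108 to 122 in CMP at 24 h, 109 to 151 in CMP at 4 h, 104 to 175 in fenclorim at 24 h and 98.2 to 135 in fenclorim at 4 h, against 271 to 371 over the 6 acetone arrays. Its 4 log2 differences from acetone lay close together. They were -1.54 ± 0.20 with CMP and -1.36 ± 0.20 with fenclorim at 24 h, and -1.31 ± 0.20 with CMP and -1.40 ± 0.20 with fenclorim at 4 h, with limma adjusted p between 1.08e-05 and 7.16e-05. The 4 compound groups overlapped with their neighbours in the order of levels.

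TUB9 fell by a similar amount in the 4 comparisons. Its signal was 264 to 301 in CMP at 24 h, 254 to 312 in CMP at 4 h, 257 to 293 in fenclorim at 24 h and 289 to 299 in fenclorim at 4 h, against 438 to 480 over the 6 acetone arrays. Its log2 differences from acetone were -0.70 ± 0.12 with CMP and -0.77 ± 0.12 with fenclorim at 24 h (limma adjusted p 0.000147 and 0.000129), and -0.67 ± 0.12 with CMP and -0.63 ± 0.12 with fenclorim at 4 h (adjusted p 0.000319 and 0.000551). After median centring the 2 fenclorim calls were lost, at -0.27 (adjusted p 0.107) at 24 h and -0.29 (adjusted p 0.105) at 4 h.

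TUB6 gave 212, 196 and 223 in CMP at 24 h and 374, 212 and 492 in fenclorim at 24 h, against 802, 727 and 873 in acetone at 24 h. At 4 h it gave 396, 534 and 387 in CMP and 361, 322 and 513 in fenclorim, against 763, 913 and 767 in acetone. Every compound array lay below every acetone array, and in fenclorim at 24 h replicate 2 lay within the range of CMP at 24 h while the other replicates lay above it. The log2 differences from acetone were -1.93 ± 0.24 with CMP at 24 h (limma adjusted p 9.8e-06), -0.90 ± 0.24 with CMP at 4 h (adjusted p 0.00811), -1.24 ± 0.24 with fenclorim at 24 h (adjusted p 0.000972) and -1.06 ± 0.24 with fenclorim at 4 h (adjusted p 0.00267). After median centring the calls at 4 h were lost, at -0.61 for CMP (adjusted p 0.125) and -0.71 for fenclorim (adjusted p 0.0661).

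TUA6 gave 582, 520 and 603 in CMP at 24 h and 1307, 859 and 1315 in fenclorim at 24 h, against 1655, 1744 and 1844 in acetone at 24 h. At 4 h it gave 728, 1078 and 849 in CMP and 594, 701 and 923 in fenclorim, against 1920, 2202 and 1636 in acetone. The groups at 24 h did not overlap, with CMP lowest, fenclorim between and acetone highest. At 4 h the compounds overlapped each other, below all acetone arrays. The log2 differences from acetone were -1.62 ± 0.19 with CMP at 24 h (limma adjusted p 5.83e-06), -1.13 ± 0.19 with CMP at 4 h (adjusted p 0.000257) and -1.39 ± 0.19 with fenclorim at 4 h (adjusted p 3.51e-05). The smallest fall was that with fenclorim at 24 h, -0.62 ± 0.19 (adjusted p 0.019). That call was lost after median centring, at -0.12 (adjusted p 0.711), without fenclorim replicate 2, at -0.41, without acetone replicate 3 of 24 h, at -0.58, and with only the compared groups in the fit.

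TUA1, the other alpha-tubulin, did not follow the rest. It gave 187, 235 and 212 in CMP at 24 h and 202, 200 and 280 in fenclorim at 24 h, against 134, 177 and 166 in acetone at 24 h. At 4 h it gave 157, 158 and 120 in CMP and 177, 181 and 191 in fenclorim, against 162, 149 and 149 in acetone. Both compounds at 24 h and fenclorim at 4 h lay above all acetone arrays of their time, while CMP at 4 h overlapped with acetone. TUA1 rose with fenclorim at 24 h, by 0.50 ± 0.17 on the log2 scale (limma adjusted p 0.0239), and the call was lost without fenclorim replicate 3 (0.34) or acetone replicate 1 of 24 h (0.39), or with only the compared groups in the fit. The differences of 0.41 ± 0.17 with CMP at 24 h (adjusted p 0.0565), 0.26 ± 0.17 with fenclorim at 4 h (adjusted p 0.236) and -0.09 ± 0.17 with CMP at 4 h (adjusted p 0.707) were not called, though that with CMP at 24 h was in 9 of 29 other settings. After median centring TUA1 was called higher with CMP at 24 h (0.68, adjusted p 0.0107), fenclorim at 24 h (1.00, adjusted p 0.00079) and fenclorim at 4 h (0.60, adjusted p 0.0272), and the value with CMP at 4 h was 0.20. In mean signal all of its 6 groups overlapped with their neighbours, in the order fenclorim 24 h, CMP 24 h, fenclorim 4 h, acetone 24 h, acetone 4 h and CMP 4 h.

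**Figure D2:**
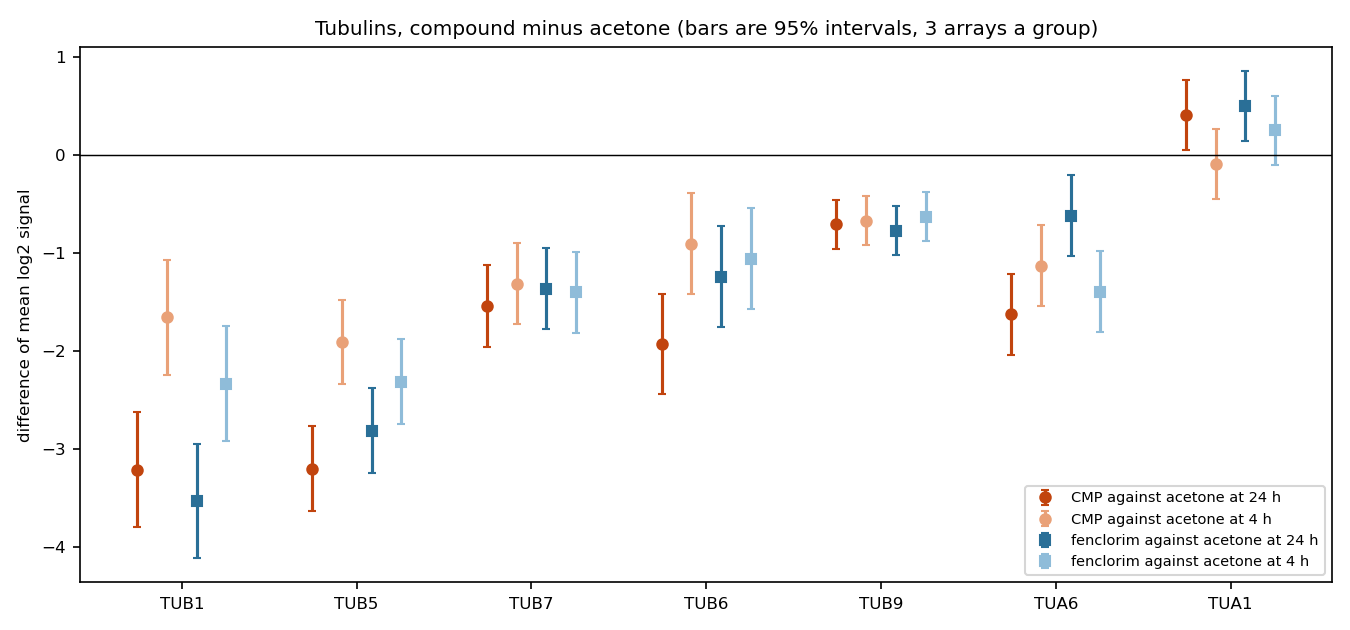
Difference of mean log2 signal between compound and acetone at the same time for each tubulin, with 95% intervals from limma (3 arrays against 3). Within each comparison TUB1 and TUB5 have the largest differences, from -3.52 to -1.65, and the intervals of TUA1 lie around or above 0.

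Many probe sets of the array were called in these comparisons, and the counts of tubulins are read against that. With CMP at 24 h, 6 of 7 tubulins were called lower, against 25.7% of the probe sets tested, and 0 of 7 higher, against 17.3%. With CMP at 4 h, 6 of 7 were called lower, against 23.3%, and 0 higher, against 13.8%. With fenclorim at 24 h, 6 of 7 were called lower, against 27.7%, and 1 higher, against 14.2%. With fenclorim at 4 h, 6 of 7 were called lower, against 25.0%, and 0 higher, against 14.4%. The median log2 difference of the 7 tubulins was -1.62 and -1.13 with CMP at 24 h and 4 h, against -0.13 and -0.25 over all probe sets tested. It was -1.24 and -1.39 with fenclorim at 24 h and 4 h, against -0.24 and -0.23 over all. The arrays of compound and acetone did not overlap, with the compound lower, for the same 6 tubulins in each comparison, and this held for 37.6% of the probe sets tested with CMP at 24 h, 32.0% with CMP at 4 h, 30.5% with fenclorim at 24 h and 33.1% with fenclorim at 4 h. TUA1 lay apart with the compound higher in all but CMP at 4 h, where 16.3% of the probe sets did, as did 26.3% of the probe sets with CMP at 24 h, 16.6% with fenclorim at 24 h and 17.0% with fenclorim at 4 h.

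With each array centred on its median, 6 tubulins were called lower and 1 higher with CMP at 24 h, against 16.2% and 25.8% of the probe sets. With CMP at 4 h, 5 were called lower and 0 higher, against 10.6% and 19.7%. With fenclorim 4 were called lower and 1 higher at either time, against 10.6% and 31.4% at 24 h and 11.5% and 22.8% at 4 h. TUB1, TUB5 and TUB7 were called lower than acetone in 348 of 348 runs, made up of these 3 genes, 4 comparisons and 29 other settings, which included leaving out each array in turn. These runs share most of their data. Leaving out an array of a group not compared could not move a difference, only the shared spread.

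**Figure D3:**
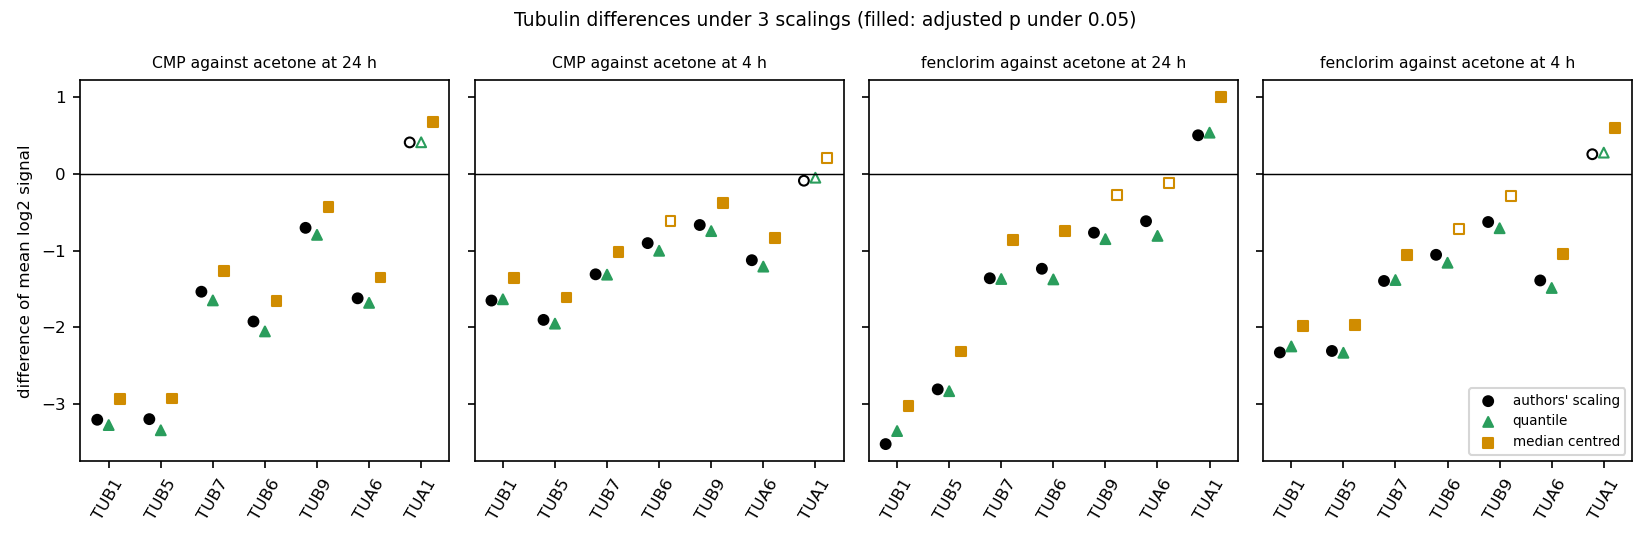
Difference of mean log2 signal from acetone for each tubulin under the authors' scaling (circles), quantile normalization (triangles) and median centring (squares); filled symbols have a limma adjusted p under 0.05. Median centring moves each value upward, and TUB1, TUB5 and TUB7 stay filled in the 4 panels.

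CMP and fenclorim were then compared with each other at matched times, for 7 tubulins at 2 times, with p-values adjusted over all probe sets tested. At 24 h TUA6 was 2.01-fold lower with CMP, at -1.01 ± 0.19 on the log2 scale (95% interval -1.42 to -0.59, limma adjusted p 0.00141), and its arrays of the compounds did not overlap, as held with CMP lower for 19.1% of all probe sets tested. This call was kept under all 29 other settings, with differences from -1.23 to -0.87. TUB6 was also called lower with CMP, at -0.69 ± 0.24 (interval -1.20 to -0.17, adjusted p 0.0416). That call lay near the threshold and held in 11 of 18 runs that left out 1 array. It was lost without CMP replicates 1, 2 or 3 (-0.70, -0.64 and -0.73), without fenclorim replicate 1 (-0.62) and without fenclorim replicate 3 (-0.42). It was also lost without acetone replicates 1 or 2 of 24 h, which leave the difference at -0.69 and change the shared spread. The 2 calls stood beside 13.7% of the probe sets called lower with CMP at 24 h and 17.2% called higher.

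For the other 5 tubulins no difference between the compounds was called at 24 h. The values were -0.39 for TUB5 (interval -0.82 to 0.04), -0.18 for TUB7 (-0.59 to 0.24), -0.09 for TUA1 (-0.45 to 0.26), 0.06 for TUB9 (-0.19 to 0.31) and 0.32 for TUB1 (-0.27 to 0.90). The intervals reach to -0.82 for TUB5 and to 0.90 for TUB1, so differences of that size are not shown to be absent. TUB5 was called lower with CMP when fenclorim replicate 2 was left out, at -0.58.

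At 4 h none of the 7 tubulins was called between the compounds, against 7.33% of the probe sets tested in either direction. TUB1 came nearest. It was higher with CMP on all 3 arrays than on any fenclorim array, as 12.0% of the probe sets were, with a difference of 0.68 ± 0.28 (interval 0.09 to 1.26, limma adjusted p 0.168). TUB5 differed by 0.41 (-0.03 to 0.84), TUA6 by 0.26 (-0.15 to 0.68), TUB6 by 0.15 (-0.36 to 0.67) and TUB7 by 0.09 (-0.33 to 0.50). TUB9 differed by -0.04 (-0.29 to 0.21) and TUA1 by -0.35 (-0.70 to 0.01), the arrays of TUA1 lying apart with CMP lower, as did 12.3% of the probe sets.

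**Figure D4:**
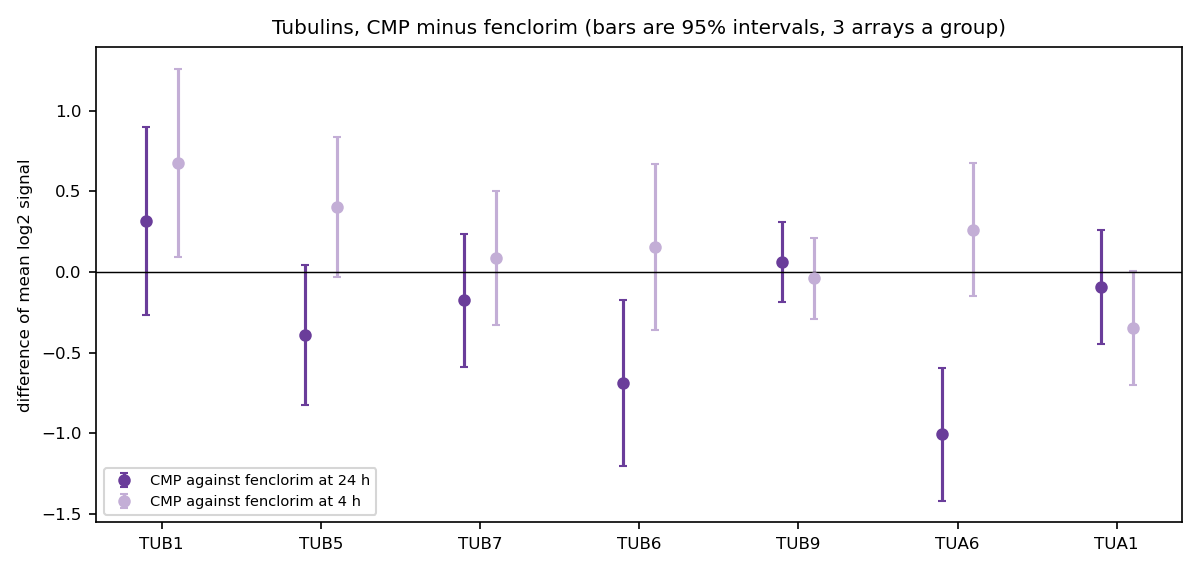
Difference of mean log2 signal between CMP and fenclorim at the same time for each tubulin, with 95% intervals from limma (3 arrays against 3). TUA6 and TUB6 at 24 h lie below 0, at -1.01 and -0.69.

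The acetone groups showed what time alone did in the absence of a compound. No tubulin was called between acetone at 24 h and acetone at 4 h, and neither was any of the 15261 probe sets (0.00%), while 769 had an unadjusted p under 0.05. The tubulin differences ran from -0.13 for TUA6 to 0.15 for TUB7.

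Whether the effect of a compound differed between the times was tested as the difference at 24 h minus the difference at 4 h. With CMP, TUB1 lay further below acetone at 24 h than at 4 h, by -1.56 ± 0.39 on the log2 scale (limma adjusted p 0.0412), and so did TUB5, by -1.29 ± 0.29 (adjusted p 0.0238). These were 2 tubulins called lower, against 2.21% of all probe sets. Both calls were lost after median centring, at -1.58 and -1.32, where 1.57% of the probe sets were called lower, and among the 18 runs without 1 array TUB1 was called in 5 and TUB5 in 13, with differences from -1.70 to -1.36 and from -1.40 to -1.17. The sizes thus moved little while the adjusted p reached 0.102 and 0.0725 in these runs. TUB6 followed at -1.02 ± 0.34 (adjusted p 0.127), and TUA6 had -0.50, TUB7 -0.23, TUB9 -0.04 and TUA1 0.50, none of them called.

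For fenclorim no tubulin was called between the times, against 2.75% of the probe sets. TUB1 had -1.20 ± 0.39 (limma adjusted p 0.112) and TUA6 had 0.77 ± 0.28 (adjusted p 0.14), the other tubulins lying between -0.50 and 0.25. TUA6 was called without fenclorim replicate 2 of 24 h, at 0.98, or without replicate 3 of 4 h, at 0.95, and TUB1 without replicate 3 of 24 h, at -1.51. The change over time in the difference between CMP and fenclorim was called for TUA6, at -1.27 ± 0.28 (adjusted p 0.0178), as 1 tubulin called lower, against 3.09% of the probe sets. This call was lost without fenclorim replicate 1 (-1.12) or replicate 2 (-1.24) of 4 h, and with only the groups compared in the fit. Without fenclorim replicate 2 of 24 h, 3 tubulins were called, TUB6 at -1.18, TUB5 at -0.99 and TUA6. Calls over all 15261 probe sets also rose in that run, to 1255 lower and 1764 higher, against 472 and 278 in the main fit.

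Within groups the tubulins varied together on certain arrays. Fenclorim replicate 2 of 24 h was the lowest array of its group for 6 of the 7 tubulins, and the 6 that fell against acetone lay 0.04 to 0.69 below their group means on the log2 scale. CMP replicate 2 and fenclorim replicate 3 of 4 h were the highest of their groups for 6 of 7, and fenclorim replicate 1 of 4 h was the lowest of its group for 6 of 7. Of these 4, fenclorim replicate 2 of 24 h, CMP replicate 2 of 4 h and fenclorim replicate 3 of 4 h also stood apart from their groups over all probe sets on the second principal component, with fenclorim replicate 2 of 24 h at 4.21 against 72.7 and 75.5 for its partners, and CMP replicate 2 of 4 h at 15.9 against -30.4 and -41.2. Fenclorim replicate 3 of 4 h lay at 52.4, farther from 0 than its partners. The poly-A controls, RNAs added to the sample before labelling, had a mean log2 signal of 7.21 on fenclorim replicate 2 of 24 h against 7.83 and 8.04 on its partners, 7.43 on fenclorim replicate 3 of 4 h against 7.16 and 6.85, and 7.67 on CMP replicate 2 of 4 h against 6.30 and 6.32. The controls also differed between groups: they ranged from 7.21 to 8.04 in fenclorim at 24 h, against 6.05 to 7.11 in acetone at 24 h, and from 6.85 to 7.43 in fenclorim at 4 h, against 6.20 to 6.69 in acetone at 4 h, without overlap. In CMP they ranged from 6.93 to 7.01 at 24 h and from 6.30 to 7.67 at 4 h and overlapped with acetone. The part of RNA and labelling quality in the tubulin values was not tested. With the 3 arrays that stood apart left out, the 6 tubulins were still called lower than acetone in each comparison. Of all 15261 probe sets, 4682 were then called lower with CMP at 24 h and 3820 at 4 h, against 3929 and 3559 in the main fit. With fenclorim 5338 were called lower at 24 h and 4213 at 4 h, against 4230 and 3819.

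**Figure D5:**
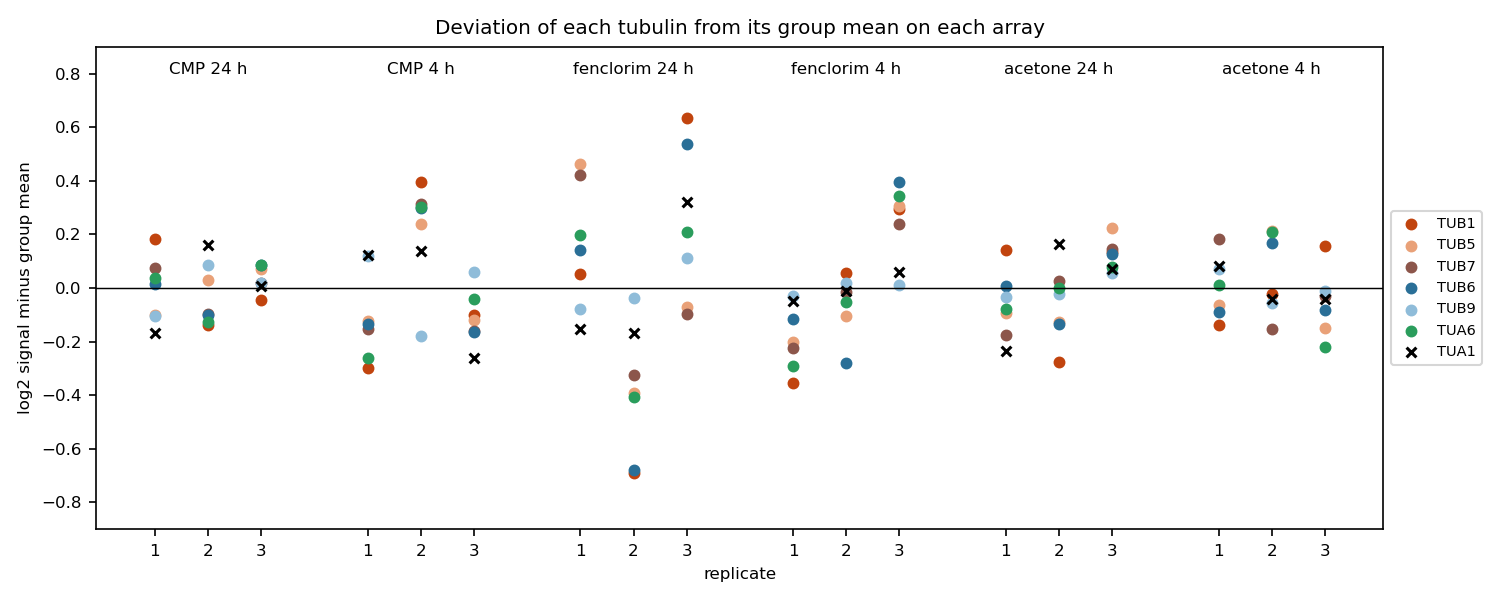
Log2 signal of each tubulin minus the mean of its group, by array. On replicate 2 of fenclorim at 24 h all 7 tubulins lie below 0, and on replicate 3 of fenclorim at 4 h all 7 lie above 0.

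Over the 18 arrays the log2 signals of TUB1 and TUB5 had a Pearson correlation of 0.97, and those of TUA6 and TUB6 one of 0.90. The arrays fall into 6 treatment groups, and after subtracting group means the correlations were 0.50 for TUB1 and TUB5 and 0.84 for TUA6 and TUB6. TUB9 correlated with TUB1 at 0.88 over the 18 arrays and at -0.09 within groups. TUA1 correlated negatively with each other tubulin over the 18 arrays, from -0.66 with TUB1 to -0.33 with TUA6, but positively within groups, from 0.15 to 0.45.

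Among 8157 other tested genes with a name of their own, those most like TUB1 over the 18 arrays were AT5G48900 (r 0.97, 0.49 within groups), AT1G12080 (0.97, 0.75), AT5G26850 (0.96, 0.47) and AT1G25230 (0.96, 0.83). Those most like TUB5 were AT5G48900 (0.98, 0.27), AT3G16370 (0.97, 0.88), GH9B7, a member of glycosyl hydrolase family 9 (0.97, 0.58), and HEME1, a uroporphyrinogen decarboxylase of tetrapyrrole synthesis (0.97, 0.51). AT5G48900, nearest to both, differed from acetone by -3.67 with CMP and -3.52 with fenclorim at 24 h, and by -1.98 with CMP and -2.69 with fenclorim at 4 h. TUA1 had no neighbour as close. Its nearest were AT4G25020 (0.85, 0.78), AT3G25870 (0.84, 0.65), AT3G51990 (0.81, 0.84) and AT1G72800 (0.81, 0.67). AT4G25020, the nearest, differed from acetone by 0.70 with CMP and 0.64 with fenclorim at 24 h, and by 0.25 and 0.52 at 4 h. All of these genes were chosen by likeness over the same 18 arrays. Their differences from acetone follow in part from that choice and lend the tubulin values no support.

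Genes whose products bind, nucleate, sever or fold tubulin were taken from a list of 57 loci, of which 7 could be named on the array and all 7 were tested. With CMP at 24 h 4 of them were called lower, with CMP at 4 h 2, with fenclorim at 24 h 5 and with fenclorim at 4 h 3, and none was called higher. Over all probe sets tested, 25.7%, 23.3%, 27.7% and 25.0% were called lower in the same order, so that 2 of 7 with CMP at 4 h is near the share over the array. After median centring the counts were 2, 1, 2 and 2 lower, against 16.2%, 10.6%, 10.6% and 11.5% of all probe sets, and 1 of 7 with CMP at 4 h is again near that share. No count was tested against its share, and 7 genes are few. The list medians were -0.52, -0.51, -0.83 and -0.42 on the log2 scale in this order, against -0.13, -0.25, -0.24 and -0.23 over all probe sets tested, and smaller in size than those of the tubulins.

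MAP65-6, of a family that cross-links microtubules, gave 49.9 to 95.8 in CMP at 24 h and 18.7 to 69.2 in fenclorim at 24 h, against 151 to 176 in acetone at 24 h. It fell in the 4 comparisons, at log2 differences of -1.31 ± 0.41 with CMP and -2.41 ± 0.41 with fenclorim at 24 h (limma adjusted p 0.0162 and 0.000292), and -1.48 with CMP and -1.42 with fenclorim at 4 h. GCP2, a subunit of the complex that nucleates microtubules, fell likewise, at -1.10 ± 0.26 with CMP and -0.83 ± 0.26 with fenclorim at 24 h (adjusted p 0.00228 and 0.0172), and -1.003 and -0.81 at 4 h. After median centring it kept its call with CMP at 24 h alone, with -0.33 for fenclorim at 24 h (adjusted p 0.332), -0.71 for CMP at 4 h (adjusted p 0.0521) and -0.47 for fenclorim at 4 h (adjusted p 0.183). TFCE, a folding cofactor of tubulin named PFI on the array, fell with fenclorim, at -0.999 for 24 h and -1.17 for 4 h (adjusted p 0.0132 and 0.00483), while its values with CMP were -0.52 and -0.64 and were not called. Its call at 24 h was lost after median centring, at -0.50 (adjusted p 0.146).

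KINESIN-13A, a member of the kinesin motor family, fell with fenclorim at 24 h, at -1.04 ± 0.19 (limma adjusted p 0.000549). TON1B, needed for the preprophase band, fell at 24 h, at -0.54 with CMP and -0.59 with fenclorim (adjusted p 0.0136 and 0.0103). SPR1, a protein of microtubule plus ends, fell with CMP at 24 h, at -0.51 (adjusted p 0.0491). After median centring the TON1B calls were lost, at -0.27 with CMP (adjusted p 0.208) and -0.093 with fenclorim (adjusted p 0.681), as was that of SPR1, at -0.24 (adjusted p 0.461). The folding cofactor TFCC, named POR on the array, was called in none of the 4 comparisons, with values from -0.36 to 0.12. Between the compounds at 24 h, MAP65-6 at 1.11 (adjusted p 0.0497) and KINESIN-13A at 0.58 (adjusted p 0.0316) were higher with CMP, and neither was called after median centring, at 0.88 (adjusted p 0.0699) and 0.35 (adjusted p 0.112).

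At the cell membrane, 2 of 15 listed genes of cellulose deposition could be named, and both fell in the 4 comparisons. In these, 23.3% to 27.7% of all probe sets tested were called lower, and 2 genes cannot speak for the list. COB, a membrane-anchored protein that orients cellulose deposition, fell at log2 differences of -1.67 ± 0.17 with CMP and -0.94 ± 0.17 with fenclorim at 24 h (limma adjusted p 1.28e-06 and 0.00055), and -1.21 and -1.43 at 4 h. Between the compounds at 24 h it was lower with CMP, at -0.73 ± 0.17 (adjusted p 0.00524). CC1 (AT1G45688), a companion of cellulose synthase that binds microtubules, fell at -1.51 with CMP and -1.27 with fenclorim at 24 h, and -1.18 and -1.57 at 4 h. After median centring COB was no longer called with fenclorim at 24 h, at -0.45 (adjusted p 0.0746), and the other calls of both genes against acetone were kept.

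Of 21 listed genes of the actin cytoskeleton 1 was tested. For this gene and the mitosis genes below, 23.3% to 27.7% of all probe sets tested were called lower in the same comparisons. ACT11, an actin, fell at log2 differences of -2.17 ± 0.26 with CMP and -1.26 ± 0.26 with fenclorim at 24 h (limma adjusted p 6.42e-06 and 0.0015), and -2.61 and -2.75 at 4 h. Between the compounds at 24 h ACT11 was lower with CMP, at -0.91 ± 0.26 (limma adjusted p 0.0165), where 13.7% of all probe sets were called lower. After median centring this difference was -1.14 (adjusted p 0.00747). ACT11 lay above the 40th percentile on 12 arrays, and that percentile was 15.1 to 22.9. Its signals were 15.0 to 19.6 in CMP at 24 h, 12.2 to 16.5 in CMP at 4 h and 10.4 to 16.4 in fenclorim at 4 h. Those in fenclorim at 24 h were 21.0 to 43.1, against 71.7 to 85.2 in acetone at 24 h. The ACT11 differences with CMP, and with fenclorim at 4 h, thus rest in part on signals near or below the filter. Of 14 listed genes of mitosis 2 were tested, both kinases of the Aurora family, which act at the spindle and in division. AUR1 fell at -1.10 with CMP and -1.70 with fenclorim at 24 h and at -1.50 with fenclorim at 4 h (adjusted p 0.0101, 0.000636 and 0.00141), and its value with CMP at 4 h was -0.80 (adjusted p 0.0586). AUR2 fell with fenclorim, at -1.33 for 24 h and -1.44 for 4 h (adjusted p 0.0122 and 0.00713). Its values with CMP were -0.53 and -0.61. AUR2 lay above the 40th percentile on 13 arrays. Its signals in fenclorim were 5.96 to 20.4 at 24 h and 7.64 to 13.0 at 4 h. In acetone they were 26.1 to 37.3 and 24.3 to 34.7. The compared fenclorim signals of AUR2 thus lay near or below the filter. The lowest AUR1 signal, 11.3 in fenclorim at 24 h, also lay below it. After median centring AUR1 with CMP at 24 h was not called, at -0.83 (adjusted p 0.06), nor was AUR2 with fenclorim at 24 h, at -0.83 (adjusted p 0.112).

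Of the cell type markers that could be tested, PYK10 rose with fenclorim at 24 h, at 0.83 (limma adjusted p 0.00104), with uncalled values of 0.40 for CMP at 24 h, -0.16 for CMP at 4 h and 0.37 for fenclorim at 4 h. After median centring it was also called higher with CMP at 24 h (0.67, adjusted p 0.00732) and with fenclorim at 4 h (0.71, adjusted p 0.00647), and was lower with CMP than with fenclorim at 24 h (-0.65, adjusted p 0.0133). The root hair expansin EXPA18, above the 40th percentile on 6 of 18 arrays, was called lower with fenclorim at 24 h, at -2.79 (adjusted p 0.0138). Its uncalled values were -1.73 and -1.74 for CMP at 24 h and 4 h and -1.66 for fenclorim at 4 h. At 24 h its signals were 0.856 to 16.6 in fenclorim and 21.3 to 67.5 in acetone. The 40th percentile of an array was 15.1 to 22.9, so the compared fenclorim signals lay near or below the filter. Its highest signals, which let it pass the filter, were in acetone, so filter and call are not independent. The part of a change in cell types in the tubulin values was not tested.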

How the data were processed

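Total RNA of 18 root culture samples was hybridised to ATH1 arrays, 3 for each of 6 groups named in the labels. The authors deposited 1 linear intensity signal for each probe set and array, made with MAS5 in GCOS per the submitters' processing notes. The version and the scaling target are not stated there. Of 22810 probe sets 64 were controls and were left out, and of the other 22746 the platform annotation named 1 gene for 13513 and several for 503, while 8730 were not listed and are unnamed here. RefSeq assembly TAIR10.1 matched 13436 and was used only for names.

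Signals were transformed to log2 on the authors' scaling, with no offset. The 15261 probe sets above the 40th percentile on at least 3 arrays were fitted with limma 3.58.1 in R 4.3.3, with 1 mean per group over all 18 arrays and moderated variances with an intensity trend. P-values were adjusted by Benjamini-Hochberg over all 15261, and calls are at an adjusted p under 0.05. The fit was tested on simulated data. Alternatives were median centring, quantile normalization, offsets of 0.417 and 16 before log2, no filter or the 60th percentile, the groups compared alone, no intensity trend, a replicate block, and leaving out each array. The offset of 16, the block with median centring and leaving out 3 arrays together were added after values had been seen. No tubulin had another probe set to try.

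Every tubulin is named in every comparison, with the 4 genes most correlated with TUB1, TUB5 and TUA1 each, called members of the microtubule list and up to 3 of other lists. The members and lists were chosen with earlier results of these data known. The number of arrays limits the precision. Tables were made with pandas 2.3.3 and numpy 2.4.6 in Python 3.11.15, figures with matplotlib 3.10.9.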

Additional observations from a re-analysis of the deposited data

Results flagged for a closer look

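In 3 results the effect of a compound differed between groups by a test of the difference itself. With CMP, TUB1 lay further below acetone at 24 h than at 4 h by -1.56 on the log2 scale, and TUB5 by -1.29 (limma adjusted p 0.0412 and 0.0238). The difference between CMP and fenclorim in TUA6 was lower at 24 h than at 4 h by -1.27 (adjusted p 0.0178). Over all 29 other settings these calls held in 11 for TUB1, 22 for TUB5 and 26 for TUA6, with differences from -1.70 to -1.20, from -1.40 to -1.11 and from -1.49 to -1.12.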

How the results depend on the processing

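The 70 tubulin differences were recomputed under 29 other settings, 18 of them leaving out 1 array. No difference called in the main fit changed sign. Counts of tubulins called moved by over 1.5 times as follows. For fenclorim against acetone at 24 h the count was 4 with median centring and a replicate block, against 7. For CMP against fenclorim at 24 h it was 1 with no filter, with the groups compared alone and with no intensity trend, against 2, and 1 to 3 without 1 array. For the CMP effect over time it was 0 with median centring, with or without the block, 1 with no filter, no trend or the block, against 2, and 0 to 3 without 1 array. For the fenclorim effect over time it was 1 with the 3 arrays left out, against 0, and 0 to 1 without 1 array. For CMP minus fenclorim over time it was 0 with the groups compared alone and 3 with the 3 arrays left out, against 1, and 0 to 3 without 1 array. Leaving out the 3 arrays also raised the calls over all 15261 probe sets. For the fenclorim effect over time they were 1819 higher and 2816 lower, against 153 and 266. For CMP minus fenclorim over time they were 2345 and 1585, against 278 and 472. Uncalled differences that changed sign were, with median centring, TUA1 with CMP at 4 h (0.20), TUB9 between the compounds at 24 h (-0.16), TUA1, TUB1 and TUB9 between the acetone times (-0.065, -0.11 and -0.095), and TUB9 in the fenclorim effect (0.014) and in CMP minus fenclorim over time (-0.072), with the same values under the block. With quantile normalization TUB6 between the acetone times was 0.022. With the 3 arrays left out, TUB9 between the compounds at 4 h was 0.057, TUB1 at 24 h -0.027, TUB6 in the fenclorim effect 0.36 and TUB9 in CMP minus fenclorim over time -0.011. Without 1 array the sign also varied for TUA1 with CMP at 4 h (-0.16 to 0.043). Between the compounds it varied for TUB7 (-0.070 to 0.21) and TUB9 (-0.10 to 0.050) at 4 h and for TUA1 (-0.18 to 0.067), TUB1 (-0.027 to 0.64) and TUB7 (-0.34 to 0.036) at 24 h. Between the acetone times it varied for TUA1 (-0.034 to 0.17), TUB1 (-0.068 to 0.14), TUB6 (-0.088 to 0.062) and TUB9 (-0.0097 to 0.054), and over time for TUB6 (-0.45 to 0.16) and TUB7 (-0.18 to 0.20) with fenclorim and TUB9 (-0.13 to 0.023) with CMP. The cause was not tested. A pairing of arrays by replicate number was not seen. The 45 pairs of the same number correlated from -0.51 to 0.48 in their deviations, and 4 of 18 arrays correlated best with their own number. Deviations from means of 3 arrays sum to 0 in each group, and the 3 arrays that stood apart weigh on them. The check therefore cannot exclude a pairing. The replicate block alone changed 1 call, TUB1 in the CMP effect over time (-1.56).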
